A study of Homo sapiens with 16 samples.

Results

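The matrix metalloproteinase (MMP) genes are 9 of the 19970 protein-coding genes considered here, and they were chosen by name: the collagenases MMP1 and MMP13, the gelatinases MMP2 and MMP9, the stromelysins MMP3 and MMP10, the matrilysin MMP7, the macrophage elastase MMP12 and the membrane-type protease MMP14. H3K27ac ChIP-seq, which recovers chromatin acetylated at lysine 27 of histone H3, was carried out on a pair of established human triple-negative breast cancer lines, MDA-MB-231 and Hs578T. In either line, cells in which Fn14 was knocked out (KO) by CRISPR, with the lentiviral TLCV2 system and a pair of guides, were set beside CRISPR controls, and all cells were starved for 8 h and then left untreated or given TWEAK at 10 ng/ml for 48 h, with fresh TWEAK after 24 h. The cytokine TWEAK binds Fn14, the product of TNFRSF12A, and the comparison asks whether TWEAK alters acetylation at these loci and whether that needs the receptor. The 8 groups held 2 replicates each, 1 deposited peak list per sample. No group restored Fn14, and peak lists do not check its loss: the TNFRSF12A start site had a peak in all 16 lists, which says nothing of the protein.

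MMPs are zinc-dependent proteases, secreted as inactive precursors or held in the membrane, that cut collagens, gelatin and other matrix proteins and are known for their part in the invasion of breast cancer cells. MMP14 activates the MMP2 precursor at the cell surface, and tissue inhibitors (TIMPs) bind the active enzymes. H3K27ac marks active promoters and enhancers, and several MMP promoters are textbook targets of the transcription factors AP-1 and NF-κB.

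Of the 9 genes, 6 lie together on chromosome 11 of hg38, all on the minus strand: MMP7 at chr11:102520508-102530750, MMP10 at chr11:102770502-102780628, MMP1 at chr11:102789401-102798160, MMP3 at chr11:102835801-102843609, MMP12 at chr11:102862736-102874982 and MMP13 at chr11:102942995-102955732. They were treated as 1 locus, chr11:102470508-103005732, which reaches 50 kb beyond the outer genes and also holds MMP20, MMP27 and MMP8. MMP2 (chr16:55389700-55506691), MMP9 (chr20:46008908-46016561) and MMP14 (chr14:22836560-22849041) lie alone, on the plus strand, and each was given a window of the gene body plus 50 kb on either side. In every list the peaks and the base pairs under peaks were recorded in these windows and within 2 kb of each start site. So was the highest fold enrichment, the value over local background that the authors' peak caller gave each peak. The lists hold no summits, so this value may be an average over the peak and depend on its width. It is called height below. Peaks of the 16 lists were merged into 55219 regions seen in at least 2 lists, of which 27 lie in the MMP windows: 10 in the cluster, 4 at MMP2, 4 at MMP9 and 9 at MMP14.

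The lists held 39544 to 47197 peaks over 64.2 to 88.9 Mb. Sequencing depth is unknown, so no counting error can be given, and a region without a peak may still carry acetylation under the calling threshold. The median −log10 q-value was 5.79 to 7.69 in the MDA-MB-231 Fn14 KO lists against 9.44 to 10.8 in the MDA-MB-231 control lists, and the untreated KO replicates of that line held 46295 and 39544 peaks. The part of these differences in the results was not tested. Start-site peaks were present in all lists at 6 of 8 mesenchymal, 4 of 6 epithelial and 2 of 6 luminal marker genes and at 0 of 4 leukocyte and 0 of 3 endothelial ones. ESR1 and PGR, which define hormone receptor positive cells, had none, as did CDH1 and CDH2. The luminal genes GATA3 and TFF1 and the epithelial genes EPCAM, GRHL2, KRT8 and KRT18 had one in all 16 lists. The leukocyte gene CD14 had one in 6.

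The sequences below show 5 of the regions described. Each is the middle 300 bases of the part that most lists share, plus strand, hg38. Capitals mark matches on either strand to the AP-1 motif TGAGTCA, the TATA motif TATAAA or the NF-κB consensus. The first lies before the MMP9 start site (chr20:46008088-46008387) and had a peak only in TWEAK-treated control cells. Those before MMP13 (chr11:102996242-102996541) and MMP7 (chr11:102552539-102552838) are intergenic, that of MMP14 (chr14:22851324-22851623) lies beyond the 3′ end of the gene, and that of MMP2 (chr16:55471509-55471808) is in an intron of its longest transcript.
MMP9 start-site region: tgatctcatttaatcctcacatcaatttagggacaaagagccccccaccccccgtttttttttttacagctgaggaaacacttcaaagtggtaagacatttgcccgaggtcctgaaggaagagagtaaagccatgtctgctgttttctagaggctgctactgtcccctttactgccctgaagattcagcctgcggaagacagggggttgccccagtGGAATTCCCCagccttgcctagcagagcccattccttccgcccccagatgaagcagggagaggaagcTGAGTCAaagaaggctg
MMP13 upstream region: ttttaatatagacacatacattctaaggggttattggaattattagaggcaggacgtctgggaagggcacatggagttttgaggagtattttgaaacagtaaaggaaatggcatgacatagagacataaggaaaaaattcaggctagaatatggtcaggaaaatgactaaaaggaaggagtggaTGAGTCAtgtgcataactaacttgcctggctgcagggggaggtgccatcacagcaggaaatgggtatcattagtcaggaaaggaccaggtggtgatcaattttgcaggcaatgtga
MMP7 upstream region: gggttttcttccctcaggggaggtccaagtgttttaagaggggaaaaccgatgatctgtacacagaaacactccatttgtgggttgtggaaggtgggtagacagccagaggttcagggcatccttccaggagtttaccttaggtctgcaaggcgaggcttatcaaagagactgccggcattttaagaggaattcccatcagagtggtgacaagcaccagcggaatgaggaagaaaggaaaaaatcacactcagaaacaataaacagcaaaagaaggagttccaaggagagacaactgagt
MMP14 downstream region: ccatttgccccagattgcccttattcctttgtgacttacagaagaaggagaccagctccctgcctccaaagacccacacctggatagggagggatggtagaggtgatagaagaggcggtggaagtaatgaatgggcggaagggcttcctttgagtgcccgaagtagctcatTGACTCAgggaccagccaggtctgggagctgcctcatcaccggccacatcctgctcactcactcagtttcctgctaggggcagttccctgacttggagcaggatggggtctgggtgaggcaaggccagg
MMP2 intronic region: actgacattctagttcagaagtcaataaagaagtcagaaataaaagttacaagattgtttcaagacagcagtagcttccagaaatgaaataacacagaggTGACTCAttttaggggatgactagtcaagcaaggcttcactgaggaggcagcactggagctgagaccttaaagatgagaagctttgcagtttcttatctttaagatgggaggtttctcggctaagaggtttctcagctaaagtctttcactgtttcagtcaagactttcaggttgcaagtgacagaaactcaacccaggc

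The MMP9 stretch held 1 match to the NF-κB consensus and 1 to TGAGTCA, which began 604 and 537 bases before the MMP9 start site. The MMP13, MMP14 and MMP2 stretches held 1 TGAGTCA each, and the MMP7 stretch held none of the motifs. The strongest region of the cluster, in an intron of MMP20, is not shown, and its middle 300 bases held none of them. Within the middle 300 bases, TGAGTCA was found in 8 of the 27 MMP regions (29.6%) and in 16.7% of all 55219 regions. The NF-κB consensus was found there in 2 of 27 (7.41%) and in 5.74% of all. Matches elsewhere in a region are left out of these shares. A match is a description of the letters and not of binding.

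RefSeq promoters (GRCh38.p14) were at hand for MMP7, MMP10 and MMP14. MMP1, MMP2, MMP3, MMP9, MMP12 and MMP13 had no entry. The MMP7 promoter (chr11:102530748-102530997, minus strand) and the MMP14 promoter (chr14:22836335-22836584, plus strand) are shown as the 250 bases before the start, with the same capitals, because they differ in acetylation: the first had no peak in any list and the second a peak in every list.
MMP7 promoter: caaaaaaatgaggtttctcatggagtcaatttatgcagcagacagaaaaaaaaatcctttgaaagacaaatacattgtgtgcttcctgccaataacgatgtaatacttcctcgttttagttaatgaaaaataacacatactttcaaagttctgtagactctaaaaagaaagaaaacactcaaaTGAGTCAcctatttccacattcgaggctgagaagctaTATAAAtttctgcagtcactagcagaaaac
MMP14 promoter: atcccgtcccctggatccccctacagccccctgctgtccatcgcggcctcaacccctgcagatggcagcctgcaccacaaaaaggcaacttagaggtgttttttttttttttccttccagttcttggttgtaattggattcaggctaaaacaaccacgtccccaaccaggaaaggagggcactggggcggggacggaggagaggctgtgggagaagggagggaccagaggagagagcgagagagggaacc

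MMP7 had TGAGTCA at 67 and TATAAA at 30 bases before the start, MMP10 had TATAAA alone, at 31 bases, and MMP14 had none of the motifs. Among 35116 promoters of this length, 4.20% held TGAGTCA, 10.7% TATAAA and 5.21% the NF-κB consensus.

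At the start sites, only MMP9 and MMP14 had peaks. MMP14 had one in 16 of 16 lists, as 52.9% of all protein-coding genes did. MMP9 had one in 4 of 16, and MMP1, MMP2, MMP3, MMP7, MMP10, MMP12 and MMP13 had none in any list, as 37.6% of all genes did. The result was the same within 1 kb and with the start of any coding transcript.

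The MMP9 start-site region (chr20:46007691-46008684) had peaks only in the 4 lists of TWEAK-treated control cells. In MDA-MB-231 its fold enrichment was 4.6 and 6.08 over 907 and 943 bp in the TWEAK replicates. In Hs578T it was 4.06 and 4.78 over 953 and 806 bp. No peak was called in the 4 untreated control lists or in any of the 8 Fn14 KO lists. Gain of a start-site peak, in both TWEAK lists and neither untreated list, was seen at 0.351% of genes in MDA-MB-231 control cells and 0.416% in Hs578T control cells (0.0701% and 0.145% in the KO cells), and 11 of 19970 genes (0.0551%) gained one in both lines with none in any Fn14 KO list. Lists without a peak give no fold enrichment there, so the region was not tested by height, and these shares are given instead.

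**Figure D1:**
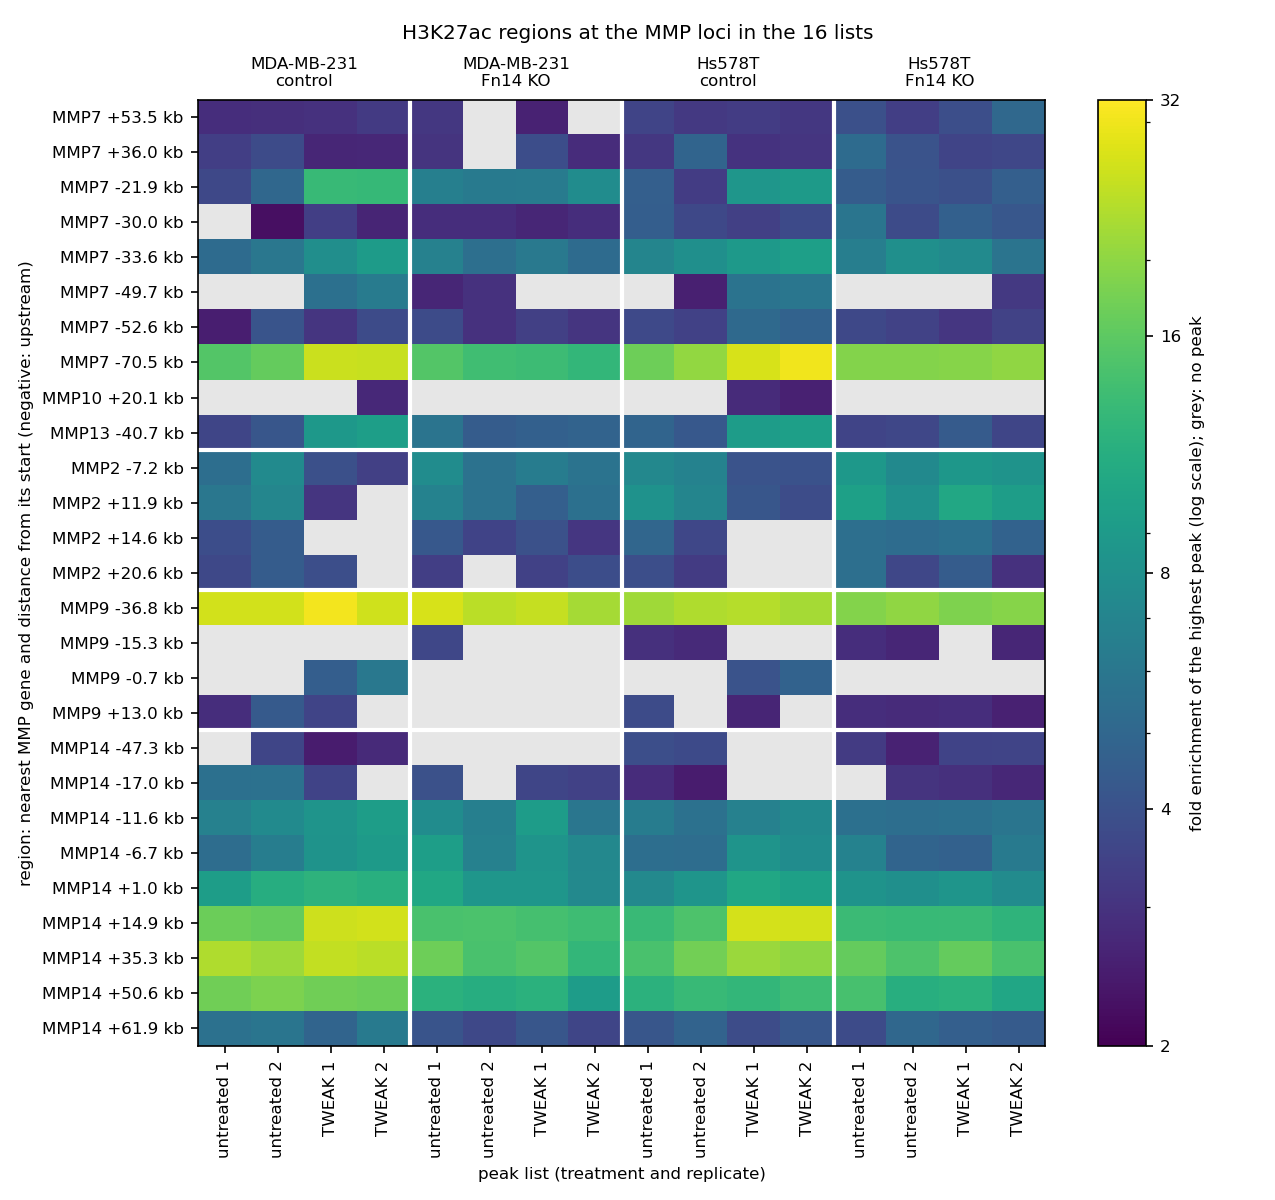
Fold enrichment of the highest peak (colour, log scale; grey, no peak) in the 27 regions of the MMP windows (rows, named by the nearest MMP gene and the distance in kb from its nearest coding transcript start) in each of the 16 lists (columns). The region just upstream of MMP9 is coloured only in the 4 TWEAK-treated control lists, and the MMP14 start-site region in all 16.

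Over the whole MMP9 window the change did not pass the test. The strongest peak there lies at the ZNF335 start site, 36.8 kb upstream, with a fold enrichment of 18.8 to 30.4 in all lists. Peaks covered 4104 and 4408 bp in untreated and 5939 and 5985 bp in TWEAK-treated controls of MDA-MB-231. In the Hs578T controls they covered 5129 and 4182 bp untreated and 6132 and 5067 bp with TWEAK. The treatments did not overlap in MDA-MB-231 and overlapped in Hs578T, with adjusted p above the threshold in each (log2 difference 0.44 ± 0.16 (SE), adjusted p = 0.118, and 0.24 ± 0.16, adjusted p = 0.434; limma over 17915 gene windows). In Fn14 KO cells the log2 differences with TWEAK were 0.03 and −0.06. A weak region 15.3 kb upstream of MMP9 was lost with TWEAK in Hs578T control cells, with a fold enrichment of 2.95 and 2.77 untreated and no peak after TWEAK.

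MMP14 was acetylated in every list. Its start-site region (chr14:22835540-22839693) had a fold enrichment of 9.33 and 11.2 in untreated and 12 and 11.5 in TWEAK-treated controls of MDA-MB-231. For Hs578T controls the values were 7.39 and 8.45 untreated and 10.4 and 9.67 with TWEAK. In Fn14 KO cells they were 10.4 and 8.62 untreated and 8.55 and 7.37 with TWEAK (MDA-MB-231), and 8.3 and 7.95 untreated and 8.49 and 7.59 with TWEAK (Hs578T). TWEAK lists were the higher ones in control cells of both lines, but the log2 differences of 0.12 ± 0.12 and 0.29 ± 0.12 did not pass (adjusted p = 0.484 and 0.0714, limma over the 28337 regions with a peak in every list, after each list was centred).

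A broad region over the 3′ end of MMP14 and the intergenic stretch behind it (chr14:22846008-22854346) rose. Its fold enrichment was 17.1 and 16.7 untreated and 25.8 and 26.5 with TWEAK in the MDA-MB-231 controls. In the Hs578T controls it was 13.1 and 14.8 untreated and 26.7 and 26.6 with TWEAK. The 8 Fn14 KO lists lay between 12.1 and 14.6 with or without TWEAK, below every TWEAK-treated control list. The rise with TWEAK was 1.46-fold in MDA-MB-231 (log2 0.55 ± 0.11, adjusted p = 0.000294) and 1.84-fold in Hs578T (log2 0.88 ± 0.11, adjusted p = 1.04e-06). The difference between the TWEAK effects of control and KO cells was itself significant in each line (log2 0.54 ± 0.15, adjusted p = 0.0119, and 0.93 ± 0.15, adjusted p = 0.000176). A region at the shared start of MRPL52, a mitochondrial ribosomal protein gene, and SLC7A7, an amino acid transporter gene, 6.67 kb upstream of MMP14, rose too (log2 0.48 ± 0.15, adjusted p = 0.0161, and 0.51 ± 0.15, adjusted p = 0.0127), but the difference between genotypes did not pass there (adjusted p = 0.153 and 0.0617), and the call was lost without replicate 1 of the untreated or replicate 2 of the TWEAK lists of MDA-MB-231 and without replicate 1 of either treatment of Hs578T.

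The covered length of the MMP14 window did not pass the test with TWEAK. Across all 16 lists it ran from 15293 to 23397 bp. In the MDA-MB-231 controls it was 23350 and 23253 bp untreated and 21690 and 21871 bp with TWEAK. The Hs578T controls had 23397 and 23112 bp untreated and 21723 and 21991 bp with TWEAK. TWEAK lists thus lay lower without overlap in each line, as at 26.4% and 38.3% of all windows. The log2 difference with TWEAK was −0.10 ± 0.12 and −0.09 ± 0.12 in control cells (limma, adjusted p = 0.751 and 0.766). Weak regions in SLC7A7, 47.3 and 17 kb upstream of MMP14, were lost with TWEAK in Hs578T control cells. The nearer of these had a fold enrichment of 2.84 and 2.47 in untreated Hs578T control cells and no peak after TWEAK, while in MDA-MB-231 control cells it had 5.55 and 5.61 untreated and a peak of 3.48 in 1 of 2 TWEAK lists. The farther one had 3.88 and 3.73 in untreated Hs578T control cells. In MDA-MB-231 control cells it had a peak in 1 of 2 untreated lists and in both TWEAK lists (2.47 and 2.79).

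MMP2 moved the other way. Peaks covered 4380 and 5149 bp of its window in untreated and 2517 and 1262 bp in TWEAK-treated controls of MDA-MB-231. For Hs578T controls they covered 5340 and 6599 bp untreated and 2051 and 2948 bp with TWEAK. In Fn14 KO cells they covered 5259 and 4590 bp untreated and 5773 and 4155 bp with TWEAK (MDA-MB-231), and 7169 and 6814 bp untreated and 7164 and 6838 bp with TWEAK (Hs578T). The 4 TWEAK-treated control lists were the lowest of the 16. On the log2(bp + 500) scale coverage fell by 1.19 ± 0.23 in MDA-MB-231 (adjusted p = 0.00704) and by 1.12 ± 0.23 in Hs578T (adjusted p = 0.0138), and the differences in KO cells were −0.00 and 0.00. The test of the difference between genotypes did not pass on this scale (adjusted p = 0.0977 and 0.182), and the calls were lost without TWEAK replicate 2 in MDA-MB-231 (log2 −0.80, adjusted p = 0.0987) and without untreated replicate 2 or TWEAK replicate 1 in Hs578T (log2 −0.98 and −0.90, adjusted p = 0.129 and 0.196). In Hs578T the call was also lost with no filter on genes (adjusted p = 0.0536).

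The intronic region of MMP2 with a peak in every list (chr16:55469757-55473172) showed the same direction by height. It lies 7.17 kb before the nearest other coding start of the gene. The start of the gene record, which set the window, lies 81909 bases before the TGAGTCA match of this region. The fold enrichment of this region was 5.43 and 7.55 untreated and 3.95 and 3.37 with TWEAK in the MDA-MB-231 controls. In the Hs578T controls it was 7.29 and 6.83 untreated and 4.05 and 4.01 with TWEAK. The KO lists lay between 5.71 and 8.75, all above the TWEAK-treated control lists. The log2 change was −0.90 ± 0.14 (adjusted p = 1.91e-05) and −0.87 ± 0.14 (adjusted p = 4.33e-05), and it differed between genotypes in MDA-MB-231 (−0.83 ± 0.20, adjusted p = 0.00373) and in Hs578T (−0.94 ± 0.20, adjusted p = 0.00212).

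Further along MMP2, a region 14.6 kb downstream of the nearest coding transcript start of the gene (chr16:55502003-55503658) was lost with TWEAK in control cells of both lines, as 1.34% of all regions were. It had a fold enrichment of 3.87 and 4.5 in untreated MDA-MB-231 and 5.02 and 3.6 in untreated Hs578T control cells, no peak in the 4 TWEAK-treated control lists, and 3.1 to 5.56 in the 8 KO lists. An intronic region 11.9 kb downstream of such a start had a peak in 15 of 16 lists and missed only TWEAK replicate 2 of MDA-MB-231 control cells. At the LPCAT2 start site, 20.6 kb downstream of the nearest coding transcript start of MMP2, a peak was lost with TWEAK in Hs578T control cells.

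The chromosome 11 cluster had more bases under peaks with TWEAK in control cells, in every replicate of either line. Peaks covered 11031 and 13790 bp of it in untreated and 16475 and 18903 bp in TWEAK-treated controls of MDA-MB-231. For Hs578T controls they covered 13720 and 15441 bp untreated and 18837 and 19557 bp with TWEAK. In Fn14 KO cells they covered 16163 and 11355 bp untreated and 13023 and 12223 bp with TWEAK (MDA-MB-231), and 16629 and 14864 bp untreated and 15073 and 16283 bp with TWEAK (Hs578T). The treatments did not overlap in control cells of either line (1.43-fold and 1.32-fold higher means with TWEAK) and overlapped in KO cells of each (0.917-fold and 0.996-fold).

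Averaged over lines, coverage of the cluster was 4947.5 bp higher with TWEAK in control cells (exact permutation test within lines, two-sided, p = 0.0556, the smallest p that 36 arrangements allow). In KO cells it was −602.2 bp different (exact p = 0.778). The TWEAK effects of the genotypes differed by 5549.8 bp (exact permutation test, 1296 arrangements, p = 0.0231). Treatment labels were exchanged within each line and genotype, so this p refers to no TWEAK effect in any of them. It does not test whether the control and KO effects are equal. Without untreated replicate 1 of the MDA-MB-231 KO cells, which has the more peaks of its pair, the difference was 4348 bp. Without that list the difference in KO cells turned to 600 bp higher with TWEAK.

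**Figure D2:**
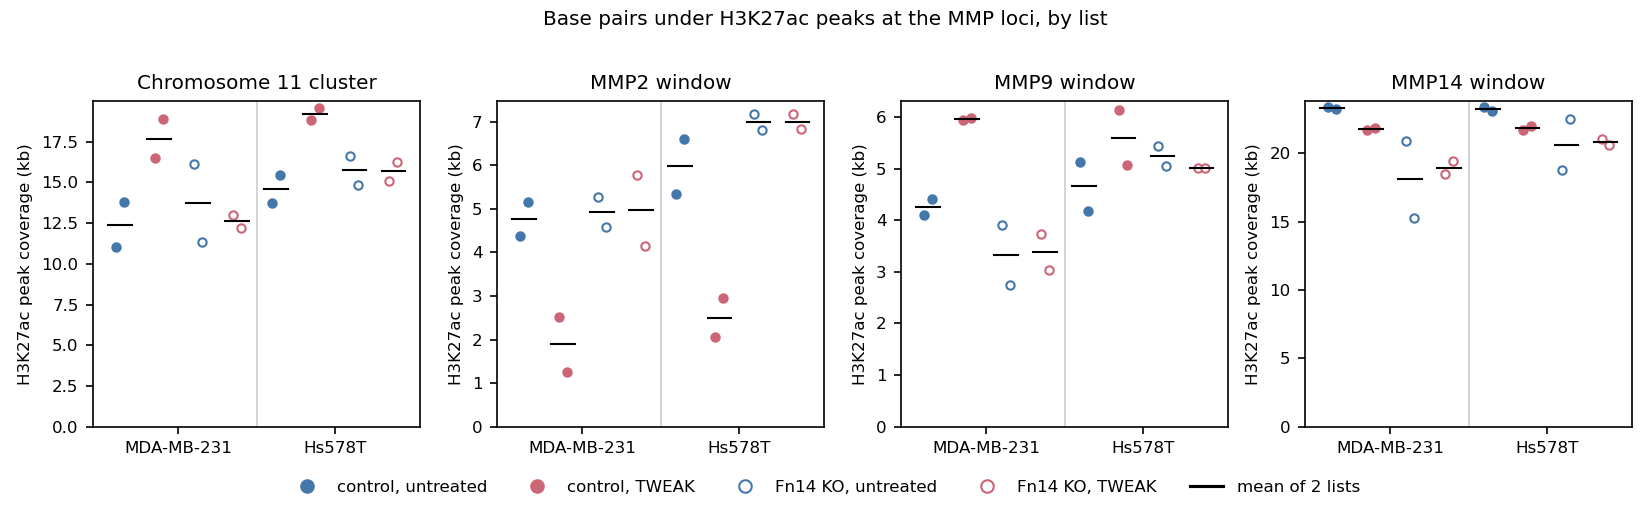
Base pairs under H3K27ac peaks (kb) in the windows of the chromosome 11 cluster, MMP2, MMP9 and MMP14; each point is 1 list, filled for control and open for Fn14 KO cells, blue for untreated and red for TWEAK, and each bar the mean of 2 lists. In control cells of both lines the TWEAK points lie above the untreated ones in the cluster and below them at MMP2 and MMP14.

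Within the cluster, peaks in all lists lay at its outer parts and none at the genes from MMP13 to MMP8. The strongest region, chr11:102597779-102604956, lies in an intron of MMP20, the enamelysin gene, 70.5 kb upstream of the MMP7 start. Its fold enrichment was 15.2 and 16.6 untreated and 25.6 and 25.3 with TWEAK in the MDA-MB-231 controls. In the Hs578T controls it was 17.4 and 20.4 untreated and 27.2 and 30.1 with TWEAK. The KO lists ran between 12.6 and 15.2 in MDA-MB-231 and between 19.1 and 20.2 in Hs578T, and none reached the TWEAK-treated control lists of its line. The rise was 1.51-fold (log2 0.59 ± 0.10, adjusted p = 4.65e-05) and 1.46-fold (log2 0.54 ± 0.10, adjusted p = 0.000183), and it differed between genotypes (log2 0.68 ± 0.14, adjusted p = 0.00114, and 0.49 ± 0.14, adjusted p = 0.0207).

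Among the 14 MMP regions with a peak in every list, the largest rise was at chr11:102551314-102554702, 21.9 kb upstream of MMP7. Its fold enrichment was 3.66 and 5.03 untreated and 12.9 and 12.8 with TWEAK in the MDA-MB-231 controls. For Hs578T controls it was 4.61 and 3.27 untreated and 8.54 and 9.1 with TWEAK. In KO cells it ran between 6.3 and 7.7 in MDA-MB-231 and between 3.94 and 4.65 in Hs578T, so that the MDA-MB-231 KO lists lay above the untreated and below the TWEAK-treated control lists. The rise with TWEAK was 2.82-fold (log2 1.50 ± 0.16, adjusted p = 6.36e-08) and 2.18-fold (log2 1.12 ± 0.16, adjusted p = 6.48e-06), and the difference between genotypes was log2 1.31 ± 0.22 (adjusted p = 0.000150) and 1.13 ± 0.22 (adjusted p = 0.00117).

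At the other end, the region 40.7 kb upstream of MMP13 (chr11:102995412-102997183), which encodes collagenase-3, also rose. Its fold enrichment was 3.57 and 4.21 untreated and 8.78 and 9.46 with TWEAK in the MDA-MB-231 controls. In the Hs578T controls it was 4.89 and 4.28 untreated and 9.3 and 9.55 with TWEAK. The KO lists ran between 4.5 and 5.79 in MDA-MB-231 and between 3.52 and 4.45 in Hs578T. The rise was 2.22-fold (log2 1.15 ± 0.14, adjusted p = 5.32e-07) and 1.98-fold (log2 0.99 ± 0.14, adjusted p = 7.06e-06), and the genotypes differed by log2 1.18 ± 0.20 (adjusted p = 0.000119) and 0.81 ± 0.20 (adjusted p = 0.00616). This was the only consensus region in the MMP13 window.

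**Figure D3:**
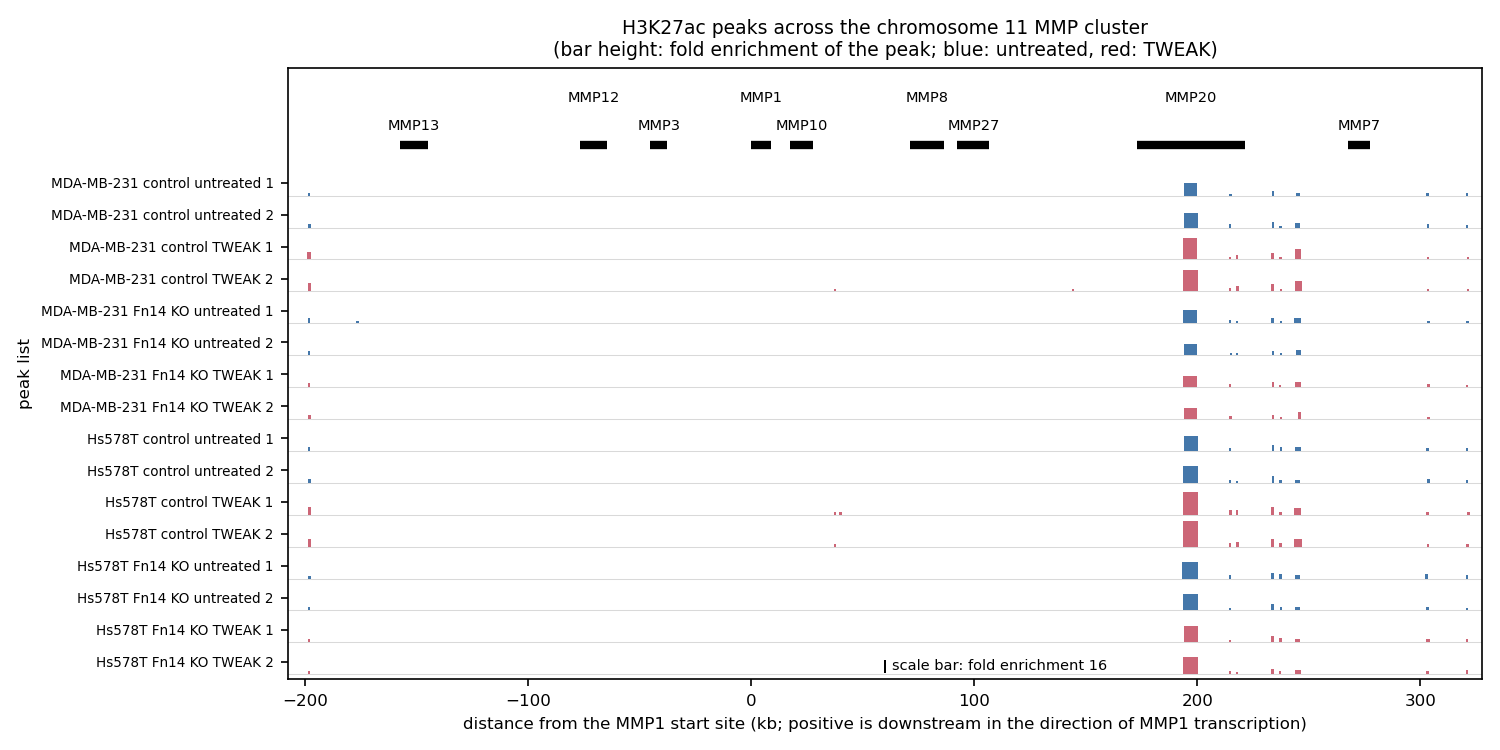
Peaks of each list across the chromosome 11 cluster, plotted by distance from the MMP1 start site (kb, positive in the direction of MMP1 transcription); bar height is the fold enrichment of the peak (scale bar, 16), blue for untreated and red for TWEAK, and bars are at least 1 kb wide. Peaks lie over MMP20, on either side of MMP7 and upstream of MMP13, and the stretch from MMP13 to MMP27 holds only small peaks in 3 TWEAK-treated control lists.

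Smaller changes flanked these. A region 33.6 kb upstream of MMP7 rose in MDA-MB-231 control cells (log2 0.51 ± 0.14, adjusted p = 0.00721) but not significantly in Hs578T (0.24 ± 0.14, adjusted p = 0.216), and the first call was lost without TWEAK replicate 2 (adjusted p = 0.0922). A region over an MMP20 exon, 52.6 kb upstream of MMP7, passed in Hs578T only just (log2 0.42 ± 0.16, adjusted p = 0.0468), and leaving out any 1 of the 4 lists ended that call (log2 0.33 to 0.51). Between them, an intronic MMP20 region (chr11:102579434-102581026) was gained in the controls of MDA-MB-231, with a fold enrichment of 5.54 and 6.37 with TWEAK and no peak untreated. In the KO cells of that line it had 2.7 and 2.97 untreated and no peak with TWEAK. In Hs578T control cells it had 5.73 and 5.97 with TWEAK and a peak of 2.55 in 1 of 2 untreated lists. In the KO cells of Hs578T it had no peak untreated and a peak of 3.17 in 1 of 2 TWEAK lists.

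MMP1, the interstitial collagenase, and MMP10 share their only consensus region, a weak one at chr11:102760159-102760902 in an intron of the noncoding gene WTAPP1, 20.1 kb downstream of the MMP10 start. A peak was called in TWEAK replicate 2 of MDA-MB-231 control cells (fold enrichment 2.76) and in both TWEAK replicates of Hs578T control cells (2.81 and 2.58), and in no other list. Covered lengths in the MMP1 and MMP10 windows were equal. They were 744 bp in the first list, 901 and 522 bp in the others and 0 in the remaining 13. The 901 bp include a peak seen in that list alone. Both windows passed the filter, a peak in at least 2 lists, only through these TWEAK-treated control lists. The 2 windows passed the test in Hs578T control cells (adjusted p = 0.0466, limma), but since all untreated lists are at 0 no fold is given, and the call was lost with a stricter q-value, with a pseudocount of 100 bp, with no filter on genes and without any 1 of the 4 lists. MMP3 and MMP12 had no peak within 50 kb in any of the 16 lists and so were not tested.

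The MMP7 and MMP13 windows as a whole had higher coverage with TWEAK in both replicates of each control line but did not pass. MMP7, the smallest of these proteases, had 3908 and 5526 bp untreated and 7435 and 8010 bp with TWEAK in the MDA-MB-231 controls. For Hs578T controls it had 5490 and 6463 bp untreated and 8133 and 9366 bp with TWEAK. The log2 differences were 0.67 ± 0.22 (adjusted p = 0.0869) and 0.52 ± 0.22 (adjusted p = 0.204). For MMP13 they were 0.43 ± 0.19 in each line (adjusted p = 0.213 and 0.217).

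Counted over the genes, 7 of 9 MMP windows passed the filter on low values. MMP1 and MMP10 passed it only through TWEAK-treated control lists, and with the same values. Their places in the counts below are therefore no support for a TWEAK effect, and the medians hold both. With TWEAK in the MDA-MB-231 controls, 0 were called higher and 1 lower, against 3.46% and 3.58% of all 17915 windows. In Hs578T control cells 2 were called higher (MMP1 and MMP10, by the same peak) and 1 lower, against 1.99% and 2.99%. In Fn14 KO cells 0 were called in either line, where 3 windows of all 17915 were called in MDA-MB-231 (0.0167% lower) and 0 in Hs578T (0.00%), with 534 and 196 windows at an unadjusted p under 0.05. The median log2 difference of the 7 windows was 0.44 and 0.43 in control cells, beside −0.02 and −0.07 over all windows, and 0.00 in KO cells of both lines, beside −0.04 and 0.01. The difference of TWEAK effects between genotypes passed at 0 of 7 windows in either line (limma; 1.07% higher and 0.391% lower of all in MDA-MB-231, 0.296% and 0.324% in Hs578T, with 2248 and 1998 windows at an unadjusted p under 0.05).

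Lists of the compared arms did not overlap at more windows than passed the test. With TWEAK, 3 windows lay higher and 2 lower in the MDA-MB-231 controls (20.0% and 26.4% of all), 4 higher and 2 lower in the Hs578T ones (18.5% and 38.3%), none in KO cells of the first line (3.86% and 12.9%) and 1, MMP9, lower in those of the second (16.1% and 13.4%). For KO against control they were 0 higher and 2 lower untreated (7.97% and 17.4%) and 1 higher and 4 lower with TWEAK (17.7% and 44.6%) in MDA-MB-231. In Hs578T they were 1 and 1 untreated (27.9% and 14.7%) and 1 and 6 with TWEAK (46.9% and 18.5%), and between the lines 1, MMP2, lay higher in Hs578T and 0 lower (36.4% and 8.65%).

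Counted over the regions, 2 of 27 were gained and 1 lost by TWEAK treatment of the MDA-MB-231 controls, against 5.58% and 4.49% of all regions. In Hs578T control cells 2 were gained and 5 lost, against 5.09% and 4.65%. In KO cells 0 were gained and 1 lost in MDA-MB-231 (0.321% and 1.35% of all) and 0 were gained or lost in Hs578T (1.05% and 0.829%). The start-site region of MMP9 was the only one gained in both lines, as 2.48% of all regions were.

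By height, 14 of the 27 regions had a peak in every list, as 51.3% of all regions did, and could be tested: 5 in the cluster, 1 at MMP2, 1 at MMP9 and 7 at MMP14. With TWEAK, 6 rose and 1 fell in control cells of each line, against 17.5% and 18.1% of all 28337 regions for MDA-MB-231 and 15.2% and 14.3% in Hs578T, and 5 of those that rose and the 1 that fell were the same in both lines. In KO cells 0 were called (0.00% higher and lower of all in MDA-MB-231, 0.00% and 0.00353% in Hs578T). The TWEAK effect was larger in control than in KO cells at 4 regions and smaller at 1 in each line (11.6% and 10.4% of regions for MDA-MB-231, 8.00% and 6.64% in Hs578T). Median log2 changes over the 14 were 0.17 and 0.29 in control cells and −0.03 and −0.01 in KO cells, where those over all regions lay between −0.02 and −0.00.

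**Figure D4:**
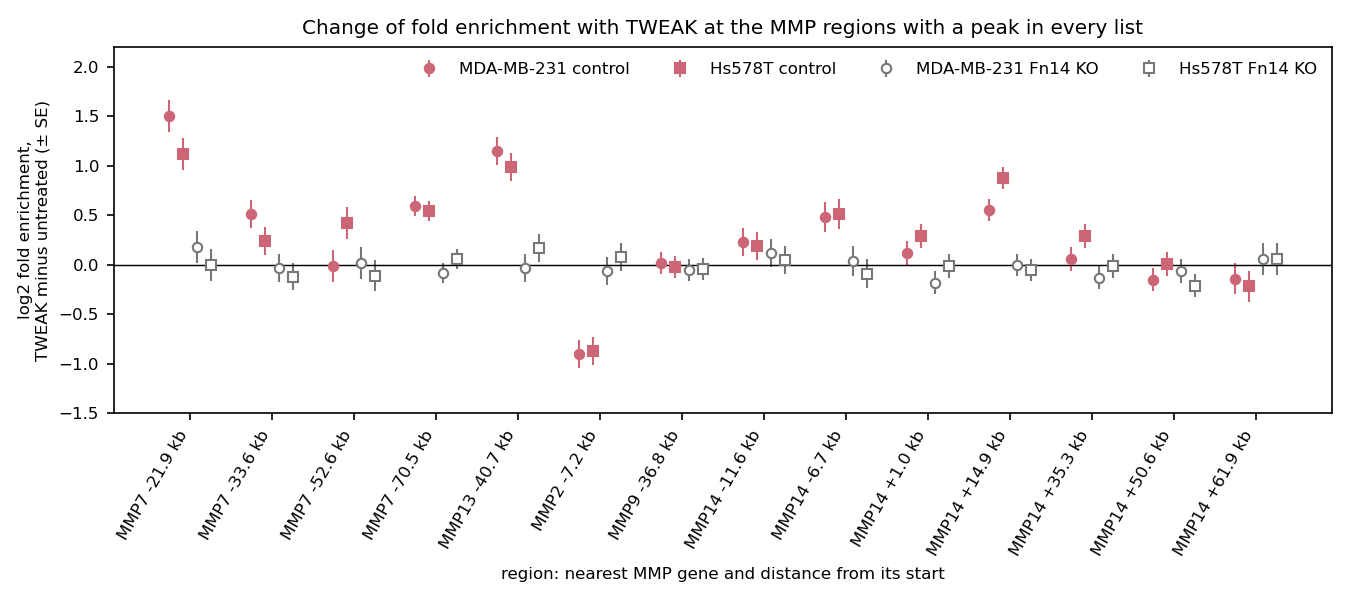
Log2 change of fold enrichment with TWEAK (± SE from limma, 2 lists against 2) at the 14 MMP regions with a peak in every list, in control cells (filled) and Fn14 KO cells (open) of MDA-MB-231 (circles) and Hs578T (squares). Control values reach 1.50 upstream of MMP7 and −0.90 in MMP2, while the highest KO value is 0.18.

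Comparing the genotypes directly, TWEAK-treated KO cells differed from TWEAK-treated control cells mainly downwards at these regions. Of the 14, 6 were lower and 1 higher in MDA-MB-231 (20.1% and 18.0% of all), and 8 were lower and 1 higher in Hs578T (19.8% and 18.6%). The 1 higher region was that of MMP2 in each line (log2 1.10 ± 0.14 in both, adjusted p = 1.86e-06 and 9.93e-07). Upstream of MMP13 the KO value was lower by a log2 of −0.57 ± 0.14 in MDA-MB-231 (adjusted p = 0.00220) and −1.21 ± 0.14 in Hs578T (adjusted p = 2.02e-07). These comparisons share their TWEAK-treated control lists with those above.

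Gene windows gave the same for MMP2 (log2 1.23 ± 0.23, adjusted p = 0.00488, in MDA-MB-231 and 1.34 ± 0.23, adjusted p = 0.00272, in Hs578T, KO against control). The MMP9 window was lower in KO cells of MDA-MB-231 with TWEAK, at 3726 and 3038 bp against 5939 and 5985 bp in control cells (log2 −0.74 ± 0.16, adjusted p = 0.0108), but not significantly in Hs578T (−0.14 ± 0.16, adjusted p = 0.613). In all, 1 MMP window was called higher and 1 lower in MDA-MB-231 (2.45% and 7.21% of all windows). In Hs578T 1 was called higher (9.55% of all) and 2 lower (3.56%), MMP1 and MMP10, admitted only through TWEAK-treated control lists. Without control TWEAK replicate 2 of MDA-MB-231 and without control TWEAK replicate 1 of Hs578T these counts were 0.

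In untreated cells, no MMP window was called between KO and control cells by limma (0.642% higher and 0.932% lower of all in MDA-MB-231, 0.128% and 0.0949% in Hs578T, with 2603 and 1152 windows at an unadjusted p under 0.05). By non-overlap, 0 MMP windows lay higher and 2 lower in MDA-MB-231 KO cells (7.97% and 17.4% of all). MMP9 was among the lower ones, at 3909 and 2742 bp in KO and 4104 and 4408 bp in control cells. By height, 3 regions were higher and 1 lower in MDA-MB-231 KO cells (10.1% and 13.5% of all) and 0 differed in Hs578T (0.720% and 1.74%). The higher ones were those upstream of MMP7 (log2 0.80 ± 0.16, adjusted p = 0.000816) and MMP13 (0.61 ± 0.14, adjusted p = 0.00286) and at MRPL52 and SLC7A7 (0.66 ± 0.15, adjusted p = 0.00305). In the MMP14 window, a region over a REM2 exon, 50.6 kb downstream, had a mean fold enrichment before centring of 18.1 in control and 11.4 in KO cells. At the MMP14 start-site region these means were 10.3 and 9.51. The lower median −log10 q-value of the MDA-MB-231 KO lists stands beside these differences, and its part was not tested. Without untreated KO replicate 1 of that line the count was 2 higher and 0 lower.

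Between the lines, coverage of the cluster was 2180.1 bp higher in Hs578T (16300.5 against 14120.4 bp, exact permutation test, 1296 arrangements, p = 0.0154). Per Mb under peaks in the list this turned to −1.42 bp (exact p = 0.799). Without untreated KO replicate 1 of Hs578T it was 1960 bp (exact p = 0.0602). In untreated control cells no MMP window differed between lines (4.26% higher and 0.821% lower of all, 3712 at an unadjusted p under 0.05), and 2 of 14 regions were higher and 3 lower in Hs578T (15.6% and 18.7% of all), among them the MMP14 start-site region (log2 −0.32 ± 0.12, adjusted p = 0.0386).

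Of 23 further genes of the pathway (14 other MMPs, 5 inhibitors and 4 genes of inducer or activating proteases), 20 could be tested. With TWEAK in the MDA-MB-231 controls 2 were higher and 2 lower (3.46% and 3.58% of all windows), in Hs578T control cells 1 was higher and 0 lower (1.99% and 2.99% of all), and in KO cells 0 were called. MMP20, whose intron holds the strongest region of the cluster, had 8898 and 10827 bp untreated and 13465 and 14543 bp with TWEAK in the MDA-MB-231 controls (log2 0.49 ± 0.13, adjusted p = 0.0351), and was lower in TWEAK-treated KO cells of that line (−0.44 ± 0.13, adjusted p = 0.0442). MMP11, stromelysin-3, had 5523 and 6539 bp untreated and 3577 and 4345 bp with TWEAK (log2 −0.55 ± 0.15, adjusted p = 0.0404). MMP8, the neutrophil collagenase, had the same peaks and values as MMP1, and the same limit applies to its call. The MMP inducer BSG (basigin) had 24916 and 26193 bp untreated and 19949 and 18207 bp with TWEAK (log2 −0.41 ± 0.10, adjusted p = 0.0221).

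Among the inhibitors, TIMP3, which binds to the matrix itself, had 3540 and 5252 bp untreated and 6916 and 7388 bp with TWEAK in the MDA-MB-231 controls (log2 0.67 ± 0.18, adjusted p = 0.0449). Its values in the Hs578T controls were 7537 and 8530 bp untreated and 6268 and 6118 bp with TWEAK, lower without overlap, but the log2 difference of −0.35 ± 0.18 did not pass (adjusted p = 0.317). TIMP3 was also higher in untreated KO than control cells of MDA-MB-231 (log2 0.83 ± 0.18, adjusted p = 0.0416). In untreated control cells it was higher in Hs578T than in MDA-MB-231 (0.82 ± 0.18, adjusted p = 0.0217). TIMP4 was higher in TWEAK-treated KO than control cells of Hs578T (log2 0.53 ± 0.11, adjusted p = 0.00735), as was BSG (0.42 ± 0.10, adjusted p = 0.0142). At start sites, 4 of 5 inhibitors and 3 of 14 other MMPs had a peak in all lists (52.9% of all genes did), and 9 of the 14 had none (37.6% of all).

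The genes whose window coverage across the 16 lists was most like that of the cluster were CRNKL1 (Pearson r = 0.954), TNFAIP8 and PRORP (0.942 each), LRRC7 (0.940) and VEZT (0.936). They lie on chromosomes 20, 5, 14, 1 and 12. These are the highest values over the genes tested whose windows lie outside the cluster, the lists share groups and amount called, and no test was made.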

How the data were processed

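Per the study's methods and the labels, chromatin was sheared to 200 to 500 bp, and the authors assessed and trimmed the reads (FastQC, Trimmomatic), mapped to hg38 by Bowtie2, took peaks from MACS2 after input subtraction, and filtered out blacklisted intervals; versions are not given in the sources used here. Each deposited list was called on 1 sample and holds, per peak, a position, a score as the authors' peak caller wrote it, a deposited fold enrichment (a ratio to local background), and the deposited −log10 p-value and −log10 q-value. No reads or library totals are held, so depth and counting error are unknown. Broad calling was inferred from the layout.

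Samples were grouped by their titles. The study's methods call the ChIP-seq replicates of cell lines biological; the labels give them only the numbers 1 and 2, and p-values measure the spread between these lists. The 9 genes and the gene lists were chosen with earlier results of these data known. Genes were the protein-coding genes of GENCODE 44, and all 83 contigs named in the lists were in the hg38 reference by name, with every peak inside its length. Peaks sharing at least 1 bp were merged. A region was gained where both TWEAK lists and no untreated list had a peak, and lost where the reverse held. Covered length per gene window was tested as log2(bp + 500) over all 16 lists for genes with a peak in at least 2 lists, and log2 fold enrichment, centred on the median of each list, over the 28337 regions with a peak in all lists, both with limma 3.58.1 (R 4.3.3; empirical Bayes with trend, 8 groups sharing 1 estimate of the spread) and Benjamini-Hochberg adjustment over all features, with a threshold of 0.05. A fold on the log2(bp + 500) scale understates the change of small windows. The cluster was tested with exact permutation tests, with treatment, genotype or line labels exchanged within the levels of the other factors. For the difference of TWEAK effects, treatment labels were exchanged, so its p refers to no TWEAK effect in any line and genotype. The scripts were tested on simulated data. Regions named were those gained or lost with TWEAK in any line and genotype; regions named by their height, and the MMP14 start-site and ZNF335 regions, were added after their values were seen. Of the pathway list, genes that passed any test were named, and the 5 genes with the highest correlation with the cluster. Python 3.11.15 with numpy 2.4.6, pandas 2.3.3 and matplotlib 3.10.9 was used. Alternatives were windows of 25 and 100 kb, a −log10 q-value of at least 2, lists trimmed to 39544 peaks, each list left out, pseudocounts of 100 and 2000 bp, no filter, scaling to covered length, a replicate block, other peak overlaps, fold enrichment not centred, and other start-site definitions.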

Additional observations from a re-analysis of the deposited data

Results flagged for a closer look

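The following results are listed because the observed change with TWEAK differed between control and Fn14 KO cells, and not every such difference was tested. Covered length of the chromosome 11 MMP cluster changed with TWEAK by 4947.5 bp in control and −602.2 bp in KO cells. The difference was 5550 bp (exact permutation test of no TWEAK effect in any line and genotype, p = 0.0231). Without untreated replicate 1 of the MDA-MB-231 KO cells it was 4348 bp. By limma, the difference of TWEAK effects passed at 0 of 7 MMP windows in either line.

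The TWEAK effect on fold enrichment at 5 regions also differed between the genotypes by the interaction term in limma, in both lines. On the log2 scale, the effect in control minus that in KO cells was 1.31 in MDA-MB-231 and 1.13 in Hs578T upstream of MMP7, 1.18 and 0.81 upstream of MMP13, 0.68 and 0.49 in the MMP20 intron, and 0.54 and 0.93 behind MMP14. In the MMP2 intron it was −0.83 and −0.94.

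The intronic MMP20 region 49.7 kb upstream of MMP7 had a peak in 4 of 8 MDA-MB-231 lists, both TWEAK lists of control and both untreated lists of KO cells, so that every list of the genotypes moved in opposite directions; this difference was not tested, and the KO peaks of that line were gone with a −log10 q-value of at least 2. In Hs578T KO cells it had no peak untreated and a peak of 3.17 in 1 of 2 TWEAK lists.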

How the results depend on the processing

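For the comparisons, 421 alternative values were computed. Of these, 359 stayed the same: a tested difference kept its direction and call, or a total count stayed within 1.5 times. Such a count may hold other genes or regions, or other directions. Of the rest, 2 fell short of the threshold, 3 changed sign and 57 moved a count by more than 1.5 times. For single regions, genes and start sites, 149 of 178 kept their call and 29 fell short of it. The cause of these changes was not tested.

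By highest fold enrichment in place of covered length, the cluster difference between untreated KO and control cells turned to −0.612. Per Mb of list, that between the lines turned to −1.42. Leaving out 1 list at a time, the cluster differences ran from −1804 to 600 bp (TWEAK, KO cells), from 4348 to 6752 bp (TWEAK effect, control against KO) and from 1579 to 2781 bp (between lines).

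Counts of MMP windows called with TWEAK in the MDA-MB-231 controls were 3 after scaling to covered length and 5 by non-overlap, against 1. In the Hs578T controls they were 1 with a −log10 q-value of at least 2, 1 in trimmed lists, 1 with a pseudocount of 100 bp, 0 with no filter, 1 with a replicate block and 6 by non-overlap, against 3. Non-overlap also gave 1 for TWEAK in Hs578T KO cells, 2 and 2 for KO against control untreated, 5 and 7 with TWEAK, and 1 between lines. KO against control with TWEAK gave 1 in MDA-MB-231 with windows of 100 kb and, in Hs578T, 1 with the stricter q-value and 1 in trimmed lists. The difference of TWEAK effects in MDA-MB-231 gave 1 in trimmed lists and 2 after scaling, against 0. Leaving out 1 list, these counts ran from 0 to 3 (TWEAK, MDA-MB-231 controls), 0 to 1 (TWEAK, Hs578T controls), 0 to 2 (KO, untreated MDA-MB-231), 0 to 3 in each line (KO, with TWEAK) and 0 to 1 (difference of TWEAK effects, MDA-MB-231).

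Regions gained or lost in MDA-MB-231 control cells numbered 6 with the stricter q-value, 6 in trimmed lists and 6 where a peak had to cover the larger portion of the region, against 3, and from 3 to 8 without 1 list. In MDA-MB-231 KO cells they numbered 0 with the stricter q-value and 0 in trimmed lists, and from 1 to 4 without 1 list. In Hs578T KO cells they numbered 1 under the cover rule, and 0 to 1 without 1 list. By height, untreated KO and control cells of MDA-MB-231 differed at 2 regions with windows of 25 kb and 7 with 100 kb, against 4, and at 2 to 6 without 1 list. TWEAK-treated KO and control cells of Hs578T differed at 5 to 9. The lines differed at 2 regions without centring, 2 with a replicate block and 10 with windows of 100 kb, against 5, and at 1 to 4 without 1 list.

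Replicate numbers were shared but did not pair the lists: correlations of same-numbered deviations lay between −0.19 and 0.09 in MDA-MB-231 and between −0.09 and 0.09 in Hs578T. With the replicate block, the cluster gave 4948 bp in control cells (exact p = 0.125), −602 bp in KO cells (exact p = 0.625) and 5550 bp for their difference (exact p = 0.0391), and, beside the 2 counts given above for the block (1 against 3 MMP windows with TWEAK in the Hs578T controls, 2 against 5 regions between lines), counts of calls stayed within 1.5 times. Depth is unknown, so weak peaks near the calling threshold, such as those at MMP1 and MMP10, limit what presence or absence shows.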
